A study of Mus musculus with 6 samples.

Results

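The enzymes with which phagocytes make superoxide and nitric oxide were followed in brain microglia through 9 genes, out of 55401 genes with a deposited count. The 9 genes were Cybb, Cyba, Ncf1, Ncf4 and Rac2 of the NADPH oxidase, the proton channel gene Hvcn1, the inducible nitric oxide synthase gene Nos2, and the arginase genes Arg1 and Arg2. They were chosen by symbol, through the Ensembl identifiers that the GENCODE M21 annotation pairs with those symbols, a rule that uses no measured value, although earlier results of these data were known when the genes were picked. All 9 had enough counts to be tested.

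RNA came from microglia of untreated mice with a labelled age of 6 weeks, 3 libraries from MRL/lpr mice and 3 from MRL/mpj mice. MRL/lpr mice are a lupus-prone strain that carries the lpr mutation of Fas, a death receptor gene, and MRL/mpj mice served as the control strain without that mutation. The mutation is in the germ line, so it was present in each cell type of the MRL/lpr animals and not in microglia alone. Brains were digested with collagenase, and the cells were enriched on Percoll and with magnetic beads against CD11b, a surface protein that microglia share with other myeloid cells. The comparison asked which transcripts differ between microglia of lupus mice and those of controls. Whether a library held 1 mouse or several, and the sex of the mice, are not given in the labels, so p-values measure the spread between these libraries, which may be technical in part.

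The libraries held 45481609 to 49846634 counts each. Counts piled up at multiples of 4, with 1234 genes at 4 counts in MRL/lpr replicate 1 against 377 at 3 and 254 at 5, so a low count rests on fewer read pairs than its size shows. MRL/lpr replicate 3 stood apart from the other libraries, with 6.38% of its counts on CT010467.1 against at most 0.458% elsewhere. Results that change without this library are given both ways. The mitochondrial share was 3.06% to 3.49% in MRL/lpr and 5.84% to 6.38% in MRL/mpj. Fas had 461, 282 and 298 counts in MRL/lpr and 426, 432 and 362 counts in MRL/mpj, and a count over the whole gene does not tell mutant from intact transcripts. Xist, which is transcribed from the inactive X chromosome of female cells, had 10847, 11319 and 8886 counts in MRL/lpr but 29, 38 and 27 counts in MRL/mpj, and a part of sex in the results below cannot be told apart from that of strain. Females of both strains were obtained according to the methods, and the low Xist counts of the MRL/mpj libraries go against that sex. The label of microglia was checked against 12 markers, all of which had counts in each library. Their summed level ran from 25150 to 29090 CPM (counts scaled to library size) in MRL/lpr and from 29390 to 30430 CPM in MRL/mpj. Csf1r and Tmem119 of this list were far from 0 everywhere. None of the 12 was higher in MRL/lpr and 3 were lower, among them Gpr34 and Fcrls. Of all genes tested, 11.1% were higher and 9.06% were lower.

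The phagocyte oxidase moves electrons from NADPH across a membrane to oxygen and so makes superoxide. Its catalytic subunit, encoded by Cybb, sits in the membrane with its partner from Cyba, and the pair is switched on when the cytosolic subunits from Ncf1, Ncf4 and others and a Rac GTPase dock onto it. Protons follow the electrons through the channel encoded by Hvcn1. Inducible nitric oxide synthase makes nitric oxide from arginine, and the arginases use the same arginine to make ornithine and urea. Both enzymes are widely used as labels of opposite activation states in macrophages and microglia.

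Among the 9 genes, 4 were upregulated (Cybb, Ncf4, Rac2 and Arg2) and 1 was downregulated (Nos2) in MRL/lpr microglia, at a Benjamini-Hochberg adjusted p under 0.05 in the quasi-likelihood test of edgeR over all genes tested. Of the 19554 genes tested, 11.1% were higher, 9.06% were lower and 20.2% changed in either direction. Cybb, Arg2 and Nos2 also passed an absolute log2 fold change of 1, the minimum that the study used. Over all genes, 8.34% passed both thresholds, 4.67% as higher and 3.66% as lower. The median log2 fold change, MRL/lpr over MRL/mpj, was 0.37 over the 9 genes and -0.01 over all genes tested. In 7 of the 9 genes the CPM values of the strains did not overlap, which was so for 39% of all genes, and the exceptions were Cyba and Arg1. CPM values here are scaled by TMM, which corrects for composition as well as depth.

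**Figure D1:**
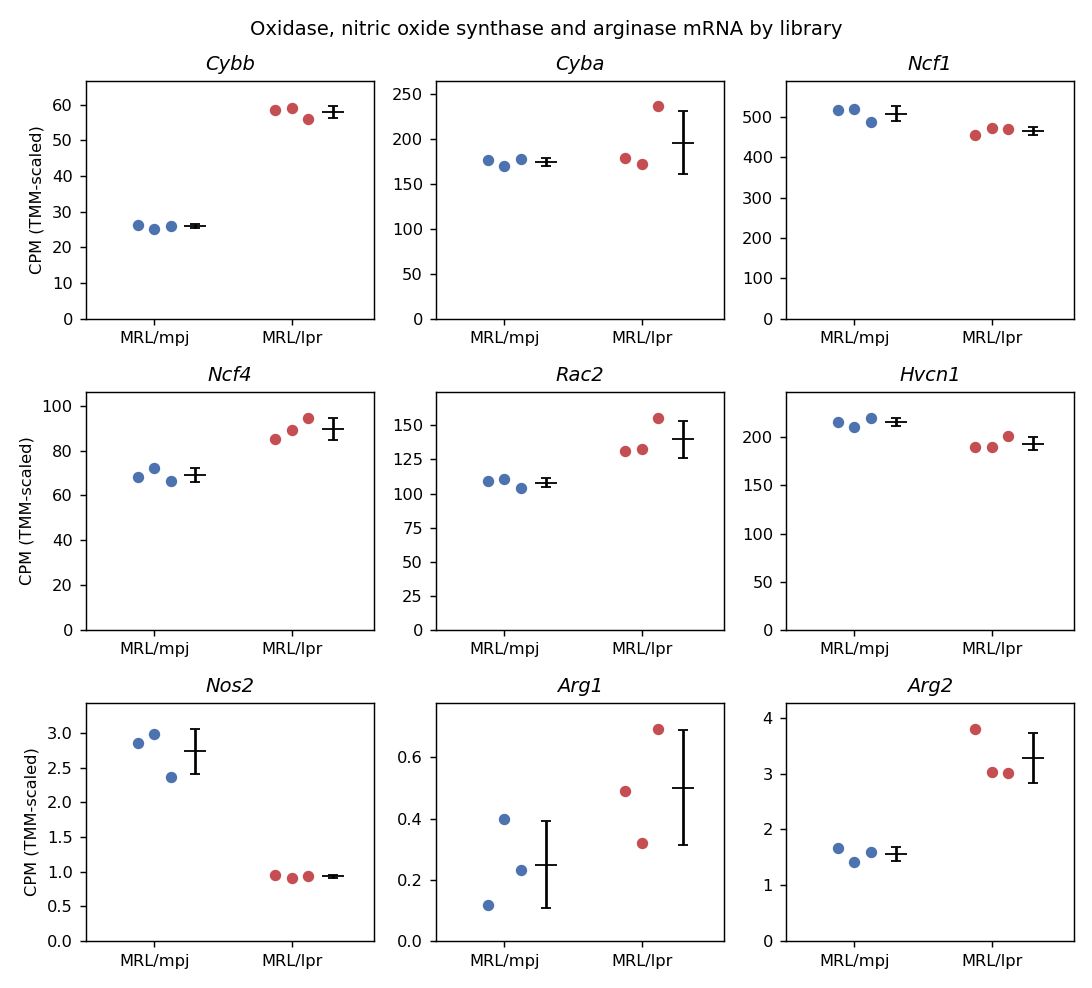
Each panel plots 1 gene, with CPM scaled by TMM on the vertical axis from 0 and the strain on the horizontal axis. Points are libraries (3 per strain) and the bar beside them is the mean with the SD, and the reader should see the wide gap between strains for Cybb, Nos2 and Arg2 and the single high MRL/lpr library, at 236 CPM, for Cyba.

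Cybb (ENSMUSG00000015340; GRCm38 chrX:9435252-9487771, minus strand) encodes gp91phox, the catalytic subunit. It had 58.6, 58.9 and 55.9 CPM in the MRL/lpr libraries and 26.4, 25.2 and 26.0 CPM in the MRL/mpj libraries. The 3 MRL/lpr libraries lay close together and all were above the 3 controls. Cybb was upregulated 2.23-fold, with means of 57.8 ± 1.66 and 25.9 ± 0.589 CPM (SD, n = 3). The log2 fold change of Cybb was 1.16 (SE 0.08, 95% interval 0.98 to 1.34, adjusted p = 1.08e-05 by edgeR), the smallest adjusted p of the 9 genes. The gene is on the X chromosome, where 45 of 621 tested genes were higher and 55 were lower, or 16.1% in all, and where the median log2 fold change was -0.10. Leaving out Xist gave 44 higher and 55 lower of 620.

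Cyba (ENSMUSG00000006519; GRCm38 chr8:122424776-122432930, minus strand) encodes p22phox, with which gp91phox forms a heterodimer. Its levels were 179, 172 and 236 CPM in MRL/lpr and 177, 169 and 177 CPM in MRL/mpj. MRL/lpr replicate 3 alone was high. MRL/lpr replicate 1, at 179 CPM, was just above the controls, and MRL/lpr replicate 2 lay among them. The log2 fold change was 0.16 (SE 0.11, 95% interval -0.09 to 0.42, adjusted p = 0.369 by edgeR) with all libraries and 0.01 without that replicate. The interval of the partner thus ended at 0.42 on the log2 scale, below the 0.98 at which that of Cybb began.

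RefSeq's promoter table for GRCm38.p6 held 3 of the 9 genes, Cybb, Cyba and Ncf1. The 250 bases before the start are shown for Cybb, which rose, and for Ncf1, which did not pass the test, in the 5′ to 3′ direction of the gene. Both genes are known targets of interferon gamma in macrophages. Capitals mark matches to the motifs searched on both strands. The Cybb stretch is chrX:9469325-9469574 and the Ncf1 stretch is chr5:134229626-134229875, both on the minus strand. The Cybb stretch lies inside the gene span given above, because the span includes a GENCODE transcript that starts farther upstream than the start used by RefSeq.
Cybb: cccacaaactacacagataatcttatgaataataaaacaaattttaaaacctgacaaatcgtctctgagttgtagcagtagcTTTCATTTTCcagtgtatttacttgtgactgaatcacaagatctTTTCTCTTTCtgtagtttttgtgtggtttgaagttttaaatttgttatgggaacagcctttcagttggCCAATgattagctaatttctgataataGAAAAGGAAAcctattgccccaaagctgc
Ncf1: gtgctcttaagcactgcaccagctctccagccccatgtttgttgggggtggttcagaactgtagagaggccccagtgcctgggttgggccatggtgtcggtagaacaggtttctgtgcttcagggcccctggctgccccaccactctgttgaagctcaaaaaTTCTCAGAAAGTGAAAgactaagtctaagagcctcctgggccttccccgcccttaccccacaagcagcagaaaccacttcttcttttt

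In the Cybb promoter, 3 matches to GAAA, any 2 bases and GAAA again, a paired motif of interferon regulatory factors (IRF), began 168, 124 and 29 bases before the start, the first and second on the opposite strand. A CCAAT box began 56 bases before the start. Of 32851 promoters of the same length, 2.98% held the paired motif and 33.8% held CCAAT. The Ncf1 promoter held a STAT motif, TTCNNNGAA, 88 to 80 bases before the start, as 7.02% of promoters did, and it overlapped a paired interferon motif 82 to 73 bases before the start. The searches for GAGGAA (PU.1), TTGCNNAA (C/EBP) and GGG, any 2 bases and TTTCC (NF-kB) gave no match in these stretches and were met in 23.3%, 9.56% and 1.41% of all promoters. Cyba matched none of the 6 motifs in this window. These matches describe letters, and no binding was measured.

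Ncf1 (ENSMUSG00000015950; GRCm38 chr5:134220053-134229625, minus strand) encodes p47phox, the organizer that carries the cytosolic complex to the membrane. It had 454, 472 and 469 CPM in MRL/lpr and 516, 519 and 487 CPM in MRL/mpj. Each MRL/lpr library was below each control, by a small margin. The log2 fold change was -0.13 (SE 0.06, 95% interval -0.26 to 0.00, adjusted p = 0.163 by edgeR). It passed the threshold when libraries were scaled by size alone, at -0.25 with an adjusted p of 0.0191 by edgeR. That scaling moved the median of all genes from -0.01 to -0.13. On the opposite strand, Gtf2ird2 shares 408 exon bases with Ncf1 and had 1573 to 1959 counts, and the sources used here do not say whether counting used strand.

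Ncf4 (ENSMUSG00000071715; GRCm38 chr15:78244801-78262580, plus strand) encodes p40phox, which binds phosphatidylinositol 3-phosphate on phagosomes. It measured 85.1, 89.4 and 94.8 CPM in MRL/lpr and 68.0, 72.5 and 66.6 CPM in MRL/mpj. All MRL/lpr values were above all control values. Ncf4 was upregulated 1.30-fold, with a log2 fold change of 0.38 (SE 0.08, 95% interval 0.21 to 0.55, adjusted p = 0.0072 by edgeR).

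Rac2 (ENSMUSG00000033220; GRCm38 chr15:78559167-78572783, minus strand) encodes the Rac GTPase of blood-lineage cells. Its levels were 131, 133 and 156 CPM in MRL/lpr and 109, 111 and 104 CPM in MRL/mpj, without overlap, and MRL/lpr replicate 3 was again the highest. The rise was 1.29-fold, with a log2 fold change of 0.37 (SE 0.08, 95% interval 0.18 to 0.56, adjusted p = 0.0118 by edgeR). Without MRL/lpr replicate 3 it was 0.29 with an adjusted p of 0.00558 by edgeR. Without MRL/mpj replicate 3 it was 0.34 and no longer passed, at an adjusted p of 0.0571 by edgeR.

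A chaperone and a second GTPase of the complex were measured alongside. Cybc1 encodes the chaperone that gp91phox needs to become stable, and had 93.1, 94.9 and 110 CPM in MRL/lpr against 59.1, 57.8 and 57.2 CPM in MRL/mpj. It was upregulated, with a log2 fold change of 0.78 (SE 0.08, adjusted p = 0.000199 by edgeR). For Rac1, the widely expressed relative of Rac2, the MRL/lpr counts were 20525, 21146 and 17508 and the MRL/mpj counts were 8869, 20654 and 21513. The low library was MRL/mpj replicate 1, and the log2 fold change of 0.39 (SE 0.36, adjusted p = 0.555 by edgeR) became 0.07 without it.

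Hvcn1 (ENSMUSG00000064267; GRCm38 chr5:122206804-122242297, plus strand) encodes the voltage-gated proton channel. It had 190, 190 and 201 CPM in MRL/lpr and 217, 211 and 220 CPM in MRL/mpj. The strains did not overlap, with the controls higher. The log2 fold change was -0.16 (SE 0.06, 95% interval -0.29 to -0.02, adjusted p = 0.101 by edgeR). It passed the threshold without MRL/lpr replicate 3, at -0.18 with an adjusted p of 0.0179 by edgeR, and with scaling by library size alone, at -0.28 with an adjusted p of 0.00934. Tctn1 on the opposite strand shares 1574 of the 3563 exon bases of Hvcn1 and had 2360 to 2880 counts, which may be divided between the genes in ways the counts do not show.

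**Figure D2:**
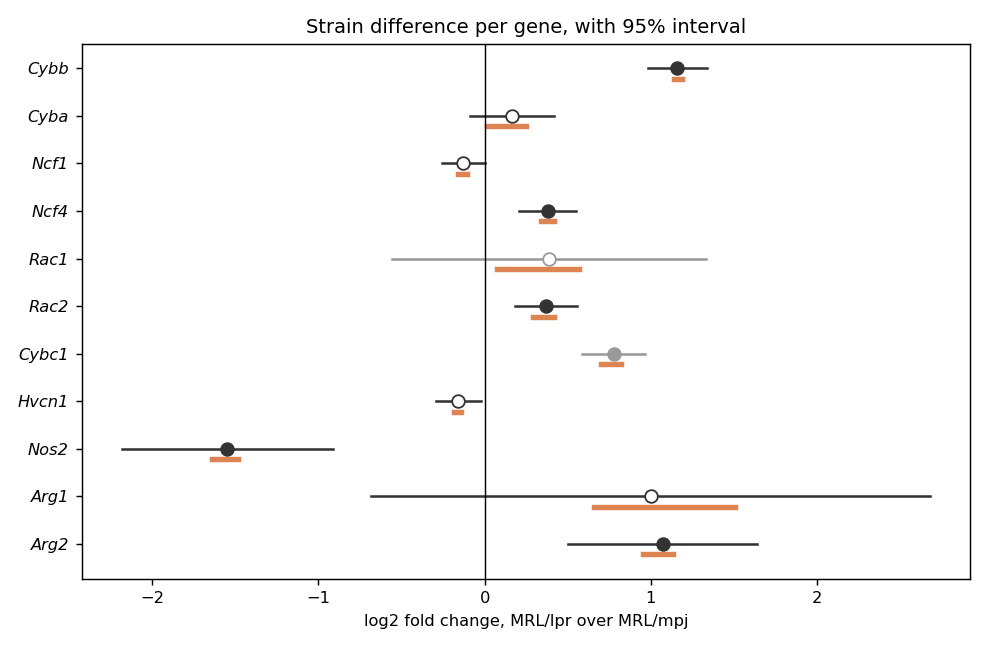
The horizontal axis gives the log2 fold change, MRL/lpr over MRL/mpj, for each gene with its 95% interval, and the orange bar under it spans the values when 1 library at a time was left out. Black marks the 9 genes and grey marks Rac1 and Cybc1, filled points had an adjusted p under 0.05, and the reader should see Nos2 at -1.55 alone on the far left and Rac1 with an interval across 0.

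Nos2 (ENSMUSG00000020826; GRCm38 chr11:78920787-78960254, plus strand) moved opposite to the oxidase subunits that rose. It had 45, 43 and 39 counts in MRL/lpr and 147, 149 and 123 counts in MRL/mpj, or 0.957, 0.914 and 0.933 CPM against 2.86, 2.98 and 2.36 CPM. All 3 controls were well above the MRL/lpr libraries, which lay close together. Nos2 was downregulated 2.92-fold, with a log2 fold change of -1.55 (SE 0.28, 95% interval -2.18 to -0.91, adjusted p = 0.00402 by edgeR). The call held in each of the 6 fits that left out 1 library, where the value ran from -1.64 to -1.48. The transcript was scarce in both strains. Nos1 and Nos3, the neuronal and endothelial synthases, differed by -0.02 (adjusted p = 0.963) and -0.04 (adjusted p = 0.874) on the log2 scale by edgeR.

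Arg2 (ENSMUSG00000021125; GRCm38 chr12:79130777-79156301, plus strand), the mitochondrial arginase, had 179, 143 and 126 counts in MRL/lpr and 86, 71 and 83 counts in MRL/mpj. These were 3.81, 3.04 and 3.02 CPM against 1.67, 1.42 and 1.6 CPM, with no overlap. It was upregulated 2.10-fold, with a log2 fold change of 1.07 (SE 0.25, 95% interval 0.50 to 1.64, adjusted p = 0.0152 by edgeR). The call was lost without MRL/lpr replicate 1, at 0.95 with an adjusted p of 0.0624, and without MRL/mpj replicate 2, at 1.0 with an adjusted p of 0.0581 by edgeR. Vti1b on the opposite strand shares 285 exon bases with Arg2 and had 1267 to 1502 counts, many more than Arg2 itself. The antisense gene Gm48780 shares 116 exon bases with Arg2 and had 12 to 99 counts. Whether reads of these genes entered the Arg2 counts was not tested.

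Arg1 (ENSMUSG00000019987; GRCm38 chr10:24915221-24927484, minus strand), the cytosolic arginase often taken as a sign of alternative activation, was close to the detection limit. It had 23, 15 and 29 counts in MRL/lpr and 6, 20 and 12 counts in MRL/mpj, which is a handful of read pairs if each pair was worth 4 counts. The strains overlapped, since the MRL/mpj library with 20 counts exceeded the MRL/lpr library with 15. The log2 fold change was 1.0 with an SE of 0.75 and a 95% interval of -0.68 to 2.68 (adjusted p = 0.414 by edgeR), so a difference in either direction was not detectable at this depth.

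Levels can be compared between genes only per length, for which the deposited FPKM values were used. In the MRL/mpj libraries, mean FPKM fell in the order Cyba 156, Ncf1 129, Rac1 68.9, Hvcn1 56.4, Rac2 32.4, Ncf4 31.8, Nos3 17.8, Cybc1 12.8, Cybb 4.14, Nos1 1.49, Arg2 1.01, Nos2 0.57 and Arg1 0.10. Neighbours in this order overlapped for Rac1 with Hvcn1 and for Rac2 with Ncf4, and for no other pair. These libraries also held endothelial markers, summing to 1622 to 1684 CPM, and which cells carried Nos3 or Nos1 was not tested. Cyba lay at the 99.3 to 99.4 percentile of the 30602 genes with an FPKM value, in each library. Cybb, the catalytic subunit, was the scarcest of these oxidase transcripts in both strains, at 4.04 to 4.22 FPKM in MRL/mpj and 7.93 to 8.84 FPKM in MRL/lpr. In MRL/lpr the order changed at Nos3, which fell behind Cybc1 at 20.1, and at Arg2, which at 1.97 FPKM moved above Nos1 at 1.35. Nos2 and Arg1 both had a mean of 0.18 FPKM there and overlapped.

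**Figure D3:**
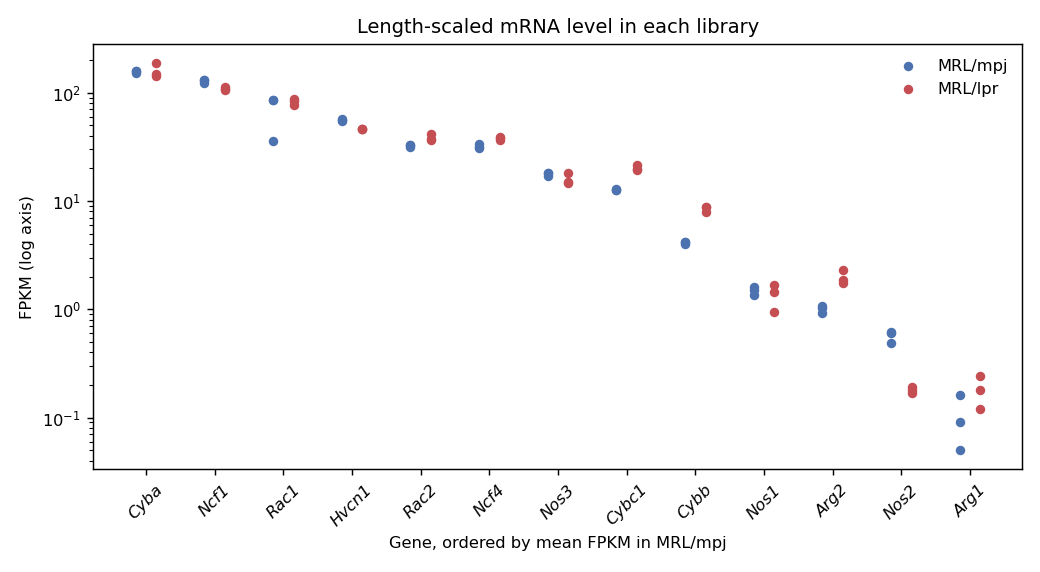
FPKM is plotted on a log axis for the genes of this order, placed along the horizontal axis by their mean in MRL/mpj, with 1 point per library and a colour per strain. Cyba stands at the top near 156 FPKM and Arg1 at the bottom near 0.10 FPKM, and Cybb and Arg2 are raised and Nos2 lowered in MRL/lpr.

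Ratios of FPKM within a library do not depend on how libraries are scaled. An exact permutation test on 3 libraries against 3 cannot go below p = 0.1, so the ratios are described by whether the strains overlapped. Cybb over Cyba was 0.0586, 0.0614 and 0.0424 in MRL/lpr and 0.0267, 0.0266 and 0.0263 in MRL/mpj, higher by 2.04 times on average. Cybb over Ncf1 was 0.0784 ± 0.00309 against 0.0322 ± 0.00154 (SD, n = 3), higher by 2.44 times. The strains did not overlap in either ratio.

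The cytosolic subunits also changed in proportion to each other. Ncf4 over Ncf1 was 0.350 ± 0.0145 in MRL/lpr and 0.246 ± 0.00712 in MRL/mpj (SD, n = 3), without overlap. Cyba over Ncf1 was 1.39, 1.28 and 1.77 in MRL/lpr and 1.21, 1.15 and 1.28 in MRL/mpj, where the lowest MRL/lpr library barely exceeded the highest control. Hvcn1 over Cybb, channel to catalytic subunit, was 5.28, 5.27 and 5.86 in MRL/lpr and 13.4, 13.7 and 13.8 in MRL/mpj. Arg2 over Nos2 was 12.2, 10.3 and 10.2 in MRL/lpr and 1.80, 1.48 and 2.10 in MRL/mpj, higher by 6.07 times on average. Both of these separated the strains. Rac2 over Rac1 and Arg2 over Arg1 overlapped.

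**Figure D4:**
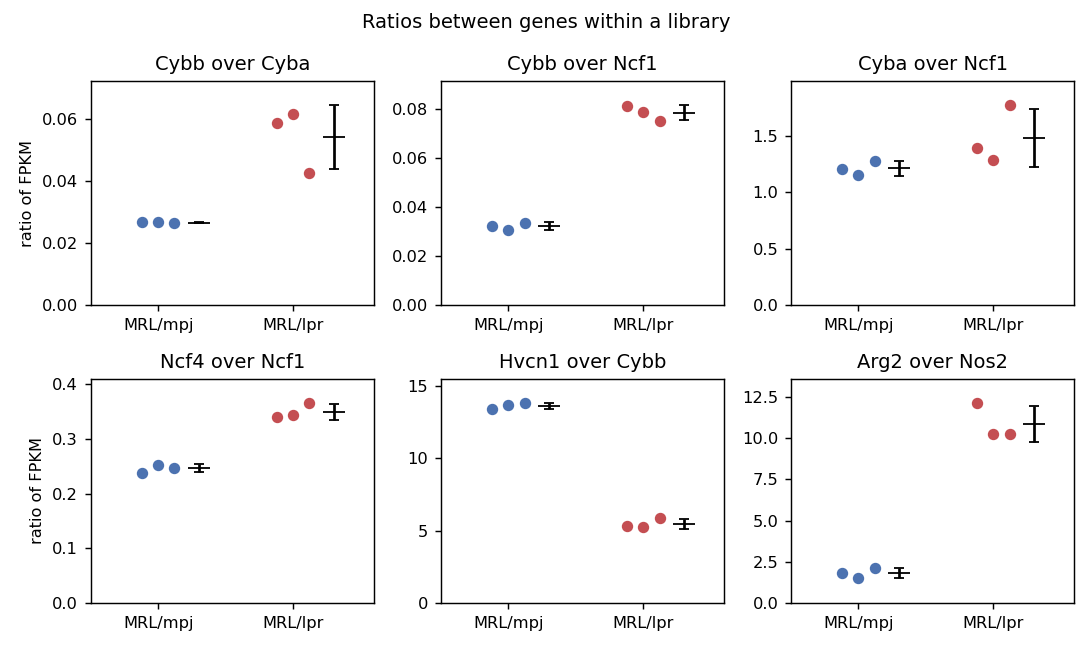
Each panel plots 1 ratio of FPKM values within a library, from 0 on the vertical axis, with points for libraries, the mean and SD as a bar, and the strain on the horizontal axis. The strains are separate in all 6 panels, barely so for Cyba over Ncf1 and most widely for Arg2 over Nos2, at 10.9 ± 1.10 in MRL/lpr and 1.80 ± 0.309 in MRL/mpj (SD, n = 3).

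Other myeloid cells also carry the oxidase, and fewer cells of a type and less RNA per cell cannot be told apart in these bulk libraries. Neutrophil markers summed to 1488 to 1663 CPM in MRL/lpr and 1457 to 1495 CPM in MRL/mpj, with 3 of 12 higher and none lower. A large part of that sum was Csf3r, at 757 to 808 CPM in MRL/lpr and 842 to 886 CPM in MRL/mpj. The median log2 fold change of the 12 was 0.30, with 9 above 0. The strains did not overlap in 8 of them, against 39% of all genes. Of 9 monocyte markers 4 were higher and 1 was lower, and they summed to 601 to 688 CPM against 590 to 611 CPM. Border macrophage markers ran the other way, at 34.6 to 38.6 CPM against 47.9 to 52.2 CPM, with 2 of 8 lower. T cell markers summed to 21.8 to 29.8 CPM in MRL/lpr and 7.38 to 8.21 CPM in MRL/mpj, with 7 of 9 higher. B cell markers were at 77.9 to 82.2 CPM against 88.1 to 98.7 CPM, with 1 of 8 tested lower, and endothelial markers at 1824 to 1994 CPM against 1622 to 1684 CPM, with 2 of 7 higher. The changed share was 25% of the neutrophil, 55.6% of the monocyte and 25% of the border macrophage markers. It was 77.8% of the T cell, 12.5% of the B cell and 28.6% of the endothelial markers, against 20.2% of all genes tested. No marker of these lists was at 0 in every library, and the part of these cells in the results was not tested.

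A list of 24 genes for oxidase partners and assembly, the 9 genes left out, had 19 with enough counts. In it 7 were upregulated and 1 was downregulated, or 42.1% against 20.2% of all genes, with a median log2 fold change of 0.20 against -0.01. Without MRL/mpj replicate 1 or 2 the changed genes numbered 5. Next to Cybc1, upregulated genes included Arhgap25, a GTPase-activating protein for Rac, at 0.51 (adjusted p = 0.0024), and Slc4a7, a bicarbonate transporter, at 0.41 (adjusted p = 0.0102). The Slc4a7 call was lost without MRL/mpj replicate 1 or 2, at adjusted p of 0.0547 and 0.0503, and with scaling by library size alone, at 0.0716. Prkcd and Pak1, kinases that act on p47phox, and Prex1, an exchange factor for Rac, also rose, at 0.33, 0.25 and 0.31, and were named after their values were seen. P2rx7, the ATP-gated channel that can trigger superoxide release, was the downregulated gene. It had 5470, 6279 and 5231 counts in MRL/lpr and 8418, 11622 and 13983 counts in MRL/mpj, and its log2 fold change was -0.83 (SE 0.17, adjusted p = 0.0131). Leaving out MRL/lpr replicate 1 or 3 ended the call, at adjusted p of 0.0581 and 0.118. Adjusted p-values in this paragraph and in the account of the next lists are from edgeR. Nox1, Nox3, Noxa1, Duox1 and Duox2, of the other NADPH oxidases, had too few counts to be tested.

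Genes of the defence against reactive oxygen, regulators among them, moved in both directions. Of 28 tested, 7 were upregulated and 3 were downregulated, or 35.7% against 20.2% of all genes, with a median log2 fold change of 0.19. In all, 6 changed without MRL/lpr replicate 2 or without MRL/mpj replicate 1. Srxn1, which repairs over-oxidized peroxiredoxins, rose most, with 523, 1095 and 967 counts in MRL/lpr and 142, 50 and 252 counts in MRL/mpj. Its log2 fold change was 2.74 (SE 0.63, adjusted p = 0.0342), and the call was lost without MRL/lpr replicate 2, MRL/lpr replicate 3 or MRL/mpj replicate 1, at adjusted p of 0.0868, 0.1 and 0.12. The Srxn1 call was also lost with no filter on low counts, at an adjusted p of 0.0956. Txnip, an inhibitor of thioredoxin, Nfe2l2, which encodes the antioxidant transcription factor NRF2, and thioredoxin reductase Txnrd1 rose by 0.48, 0.47 and 0.45 on the log2 scale. Gpx1 rose by 0.42, and G6pdx and Pgd, the NADPH-making enzymes of the pentose phosphate pathway, rose by 0.34 each; these 3 were named after their values were seen. The downregulated genes were the peroxiredoxins Prdx3 and Prdx1 and catalase (Cat), at -0.52, -0.37 and -0.27. Cat kept its call without MRL/lpr replicate 3 but lost it when any other single library was left out, at adjusted p of 0.0701 to 0.149.

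Around nitric oxide and arginine, 29 of 31 listed genes were tested. Of these, 5 were upregulated and 6 were downregulated, or 37.9% against 20.2% of all genes, with a median of -0.02. Of the 5 upregulated genes, 3 act in polyamine turnover, downstream of ornithine. Srm and Oaz2, also of polyamine metabolism, were among the 6 downregulated genes. Without MRL/mpj replicate 1 the changed genes of the list numbered 6. Odc1, which commits ornithine to polyamines, rose from 122 ± 8.79 to 240.5 ± 32.9 CPM (SD, n = 3), a log2 fold change of 0.98 (SE 0.10, adjusted p = 0.000178). Smox and Sat1, which oxidize and acetylate polyamines, rose by 0.94 and 0.44. With MRL/mpj replicate 1 left out Sat1 had an adjusted p of 0.0504, and with scaling by library size alone it had 0.0709. The spermidine synthase gene Srm fell by 0.43, with an adjusted p of 0.0192, and this call was lost in 4 of the 6 fits that left out 1 library, those without MRL/lpr replicate 1 or 2 and without MRL/mpj replicate 1 or 2, at adjusted p of 0.0624 to 0.0841. Gch1, the entry enzyme of the tetrahydrobiopterin that nitric oxide synthases need, rose by 0.62, while Pts, the next enzyme of that route, fell by 0.52 (adjusted p = 0.0125, and 0.0547 without MRL/mpj replicate 1). Gucy1a1 and Gucy1b1, the subunits of the nitric oxide receptor guanylate cyclase, fell by 1.24 and 1.02, at 5.05 ± 0.846 against 11.9 ± 0.558 CPM and 10.6 ± 1.0 against 21.6 ± 1.05 CPM (SD, n = 3). Asl, which makes arginine, rose by 0.34, while Oaz2, an antizyme of polyamine synthesis, and Ddah2 fell by 0.42 and 0.34. All 3 were named after their values were seen. Gchfr and Agmat had too few counts to be tested.

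Of 14 transcription factors known for control of genes of this kind in macrophages, 7 were upregulated and none was downregulated. The upregulated share was 50% against 11.1% of all genes, and the median log2 fold change was 0.33. Cebpb, a C/EBP factor of myeloid cells, rose from 103 ± 5.20 to 219 ± 7.54 CPM (SD, n = 3), a log2 fold change of 1.08 (SE 0.07, adjusted p = 6.64e-06 by edgeR). Klf4 rose by 0.87, and Nfkb1 by 0.40. Rela, Stat3 and Stat6, named after their values were seen, rose by 0.38, 0.30 and 0.24. With scaling by library size alone 4 of the 14 changed. Spi1, Irf1 and Irf8, also named afterwards, had log2 fold changes of 0.17, 0.69 and 0.35 and did not pass, and Irf1 and Irf8 each varied widely within a strain, with 3163 to 6555 and 11402 to 23334 counts in MRL/mpj.

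**Figure D5:**
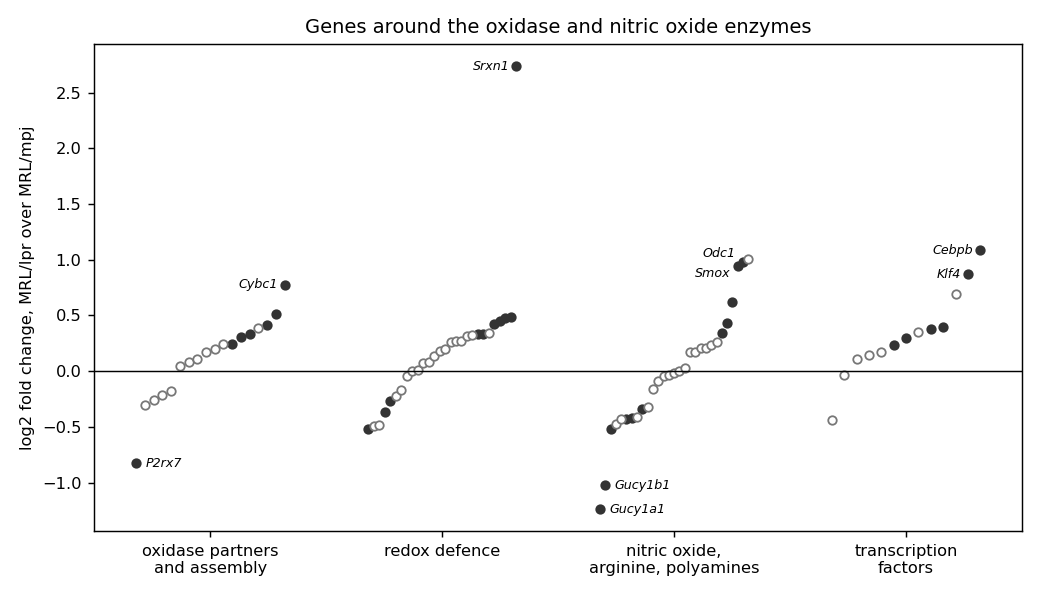
Each point is 1 tested gene of 4 lists, spread along the horizontal axis by rank within its list, with the log2 fold change of MRL/lpr over MRL/mpj on the vertical axis, and filled points had an adjusted p under 0.05 by edgeR. Most transcription factors lie above 0, while the nitric oxide list runs from -1.24 for Gucy1a1 upward.

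The genes with the pattern most like that of 4 members were found by the Euclidean distance of log2 CPM, centred on each gene, over the 6 libraries. Nearest to Cybb were Mapkapk2, a kinase downstream of p38, at a distance of 0.0515, and Cd83 and Cd274, surface proteins of activated antigen-presenting cells, at 0.0646 and 0.0886. For Ncf4 they were Jade2, Asl and Slc9a8, at 0.0716 to 0.0908. For Nos2 they were Mbd4, Tagln and Ttr, at 0.212 to 0.255, and Tagln and Ttr are known from smooth muscle and from choroid plexus. For Hvcn1 they were Tgfbr2, Ankrd50 and Hadha, at 0.0459 to 0.0519. With 6 libraries in 2 groups, such a distance mostly reads the size of the strain difference.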

How the data were processed

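Libraries of CD11b-selected brain cells, 3 per strain, were compared. The deposited files hold raw counts for each gene and FPKM values, both computed by the authors per library. The submitters' processing notes name cutadapt 1.9.3, HISAT2 2.0.4, Cuffdiff 2.2.1, Cufflinks and GRCm38. The counting tool, annotation and use of strand are not given in the sources used here. Library preparation is described as removal of rRNA in the labels and as mRNA purification in the study's methods. For symbols and coordinates, GENCODE M21 (GRCm38) was used, in which 55141 of 55401 identifiers were found.

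Counts were tested with edgeR 4.0.16 in R 4.3.3 without covariates. Genes were filtered with filterByExpr (minimum count 10, minimum total 15), scaled by TMM and tested by the quasi-likelihood test with robust dispersions, and p-values were adjusted by Benjamini-Hochberg over all 19554 genes tested. The common biological coefficient of variation was 0.26. The study's methods name DESeq2, a minimum of 1 for the absolute log2 fold change and q under 0.05; here DESeq2 1.42.0 was an alternative, as was limma 3.58.1 on log2(FPKM + 0.1) and log2(FPKM + 1). Other alternatives were other scalings, count filters, non-robust dispersions, glmTreat, counts divided by 4, a replicate block and each library left out in turn. Depth was 45481609 to 49846634 counts a library. The steps were tested on simulated data.

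The 9 genes and the lists were chosen with earlier results of these data known. Named genes are the 9, Cybc1, Rac1, Xist, up to 4 higher and 4 lower genes per pathway list by absolute log2 fold change among those that passed, and the 3 genes nearest in pattern to 4 members. Some genes that this rule covers are not reported here or drawn in the plots, and counts of genes include them. These 4 were the 2 with the smallest adjusted p in each direction of change. Promoter sequences came from RefSeq, GRCm38.p6.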

Additional observations from a re-analysis of the deposited data

How the results depend on the processing

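Of 169 values of the 9 genes under the alternatives, 154 kept their direction and their side of the threshold, 8 no longer passed, 7 newly passed and 0 turned direction. Cybb ran from 0.89 to 1.19, Nos2 from -1.67 to -0.41 and Arg2 from 0.56 to 1.13 on the log2 scale, with the end nearest 0 from log2(FPKM + 1), which understates the change of low genes. Tested against the fold minimum itself with glmTreat, 0 of the 9 genes were called in either direction or past the fold minimum, and 0 of each of the 4 lists, while Cybb and Nos2 among the 9 genes and 4 list genes had an unadjusted p under 0.05 there, and over all genes 379 were called higher and 237 lower. DESeq2 called the same 5 of the 9 genes as edgeR. With scaling by library size only, and with FPKM at either pseudocount, 3 of the 9 genes were lower (Ncf1, Hvcn1 and Nos2), and the tested genes split as 1634 higher and 2790 lower with library size only against 2178 and 1772. With library size only 4 transcription factors changed. With FPKM, at either pseudocount, 5 genes of the oxidase list, 5 of the redox list and 3 transcription factors changed, and at a pseudocount of 1 the number of the 9 genes past the fold minimum was 0. The calls of Slc4a7, Txnip, Nfe2l2, Gch1, Sat1 and Nfkb1 were lost with FPKM at either pseudocount, and a replicate block ended those of Cat and Srm, at adjusted p of 0.0835 and 0.0564. Leaving out 1 library at a time gave 3 to 4 higher and 1 to 2 lower of the 9 genes, 2 to 3 past the fold minimum, and 5 to 9 changed genes in the oxidase list, 6 to 9 in the redox list, 6 to 12 in the nitric oxide list and 5 to 7 among the transcription factors. The lowest values were those without MRL/mpj replicate 1 for the oxidase, redox and nitric oxide lists, shared by the fit without MRL/mpj replicate 2 for the oxidase list and without MRL/lpr replicate 2 for the redox list. The cause of these shifts was not tested. Arg1 gave no value with the stricter filter or with counts divided by 4, since it was then not tested. The replicate numbers did not pair the libraries, with correlations of deviations of -0.0409, -0.0202 and -0.0325 between the strains' libraries of the same number, and a replicate block called 1754 higher and 1309 lower genes, the same 5 of the 9 genes and 6 genes of the redox list. Low counts, above all of Arg1, set the limit of precision.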
